A study of Mus musculus with 24 samples.

Results

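The display of peptides on MHC class I molecules was examined through 10 genes of the mouse, B2m, H2-K1, H2-D1, Tap1, Tap2, Tapbp, Psmb8, Psmb9, Psmb10 and Nlrc5. Their chromatin was followed through every ATAC-seq peak that overlapped the body of one of these genes, extended by 5 kb on each side, in the GENCODE annotation of mm10. The rule used positions only and took 25 of the 65483 consensus peaks. Of these, 10 peaks spanned an annotated start site of a member and 15 lay elsewhere in or near the genes. Psmb9, Tap1, Psmb8 and Tap2 follow each other on chromosome 17, so that 3 peaks fell within the reach of more than 1 member.

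MHC class I molecules consist of a heavy chain, such as the products of H2-K1 and H2-D1, and the light chain made by B2m, and they show peptides from inside the cell to CD8+ T cells. The peptides are cut by the proteasome, in which Psmb8, Psmb9 and Psmb10 encode the catalytic subunits of the immune form, carried into the endoplasmic reticulum by the transporter of Tap1 and Tap2, and loaded with the help of tapasin, the product of Tapbp. Nlrc5 encodes the class I transactivator, which acts on a conserved module in the promoters of the heavy chains and of B2m, and B cell lymphomas that arise in the GC often lose class I display.

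GC B cells were sorted from the spleens of 17 mice, given as 8 weeks old, female and of C57BL/6J background, on day 10 after immunization with sheep red blood cells (SRBC). Every mouse, the WT controls included, carried Cg1Cre+/-, a Cre recombinase driven from the immunoglobulin gamma 1 locus that acts in GC B cells. The 4 WT mice carried no floxed allele, the 4 C mice were Crebbp fl/+, the 4 K mice were Kmt2d fl/+ and the 5 CK mice carried both floxed alleles, so that 1 copy of the acetyltransferase gene Crebbp, of the methyltransferase gene Kmt2d, or of both remained after deletion. Each mouse gave 1 library, and the share of cells that had deleted an allele was not measured here.

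Accessibility is given as CPM, a fragment count scaled to the TMM-corrected size of its library, and a locus is the sum over all peaks within 5 kb of a gene body. Depth ranged from 17483706 to 21857738 fragments in peaks a library, of which 0.102 to 0.112% lay in the 25 member peaks. All 6 GC B cell markers and all 4 B lineage markers had a peak within 1 kb of a start site, and none of the 5 T cell markers did. The 4 markers of naive or memory B cells summed to 83.4 to 95.4 CPM in WT, 78.8 to 86.8 in C, 71.0 to 84.1 in K and 72.3 to 88.1 in CK. All 3 plasma cell markers had a peak, and they summed to 138 to 145 CPM in WT and 143 to 149 in C. In K the plasma cell markers summed to 137 to 153 CPM and in CK to 140 to 148. The 3 myeloid markers with a peak summed to 33.5 to 39.9 CPM in any library. Of the targeted genes, the Crebbp locus was at 89.9 ± 4.89 CPM in WT and 89.1 ± 3.92 in C, and the Kmt2d locus at 127 ± 3.19 in WT and 128 ± 3.82 in K (SD, n = 4 each), so peak counts over these loci do not show the loss of 1 copy. Although the mice were given as female, 9 of the 17 libraries held 75.4 to 84.3 CPM in peaks of the Y chromosome outside its pseudoautosomal end, and the other 8 held at most 0.0566. The 9 were WT 1 and 2, C 1 and 2, K 1, 3 and 4, and CK 1 and 4, and results were also computed within the libraries with and without this signal.

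The promoters of the 2 classical heavy chains and of B2m are shown first, since the start-site peaks of these genes cover the module through which class I genes are switched on together. Sequences were taken from the RefSeq promoter table on GRCm38.p6, which held 8 of the 10 members, and capitals mark matches on either strand to 5 motifs, which do not overlap one another in the windows shown. They are CCAAT, the letters bound by NF-Y, TGACG, the core of cAMP response elements, GGGCGG, a GC box, a core of interferon response elements (GAAA, any 2 bases, GAAA) and a core of NF-kB sites (GGGA, any base, TTTCC). The first sequence ends just before the B2m start at chr2:122147437-122147685 on the plus strand, and the second just before the H2-K1 start at chr17:34000348-34000597 on the minus strand.
B2m: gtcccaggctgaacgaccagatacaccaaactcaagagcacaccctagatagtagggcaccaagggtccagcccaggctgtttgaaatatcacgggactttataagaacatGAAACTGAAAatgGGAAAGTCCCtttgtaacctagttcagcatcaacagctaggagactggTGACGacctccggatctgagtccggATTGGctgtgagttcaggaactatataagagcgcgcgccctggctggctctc
H2-K1: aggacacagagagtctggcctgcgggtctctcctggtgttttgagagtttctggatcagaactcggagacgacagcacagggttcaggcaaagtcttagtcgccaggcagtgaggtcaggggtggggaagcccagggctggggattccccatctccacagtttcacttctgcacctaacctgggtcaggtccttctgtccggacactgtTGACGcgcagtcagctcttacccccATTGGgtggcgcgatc

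In both promoters, and in that of H2-D1, TGACG was followed after 20 bases by ATTGG, the reverse of CCAAT, and the 3 stretches of 30 bases are set below each other. They begin 78 bases before the RefSeq start of B2m, 41 before that of H2-K1 and 101 before that of H2-D1, at chr2:122147609-122147638, chr17:34000359-34000388 and chr17:35262993-35263022. The last lies downstream of the first start that GENCODE gives for H2-D1. All 3 lie inside the start-site peaks described below.
B2m site: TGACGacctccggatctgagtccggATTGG
H2-K1 site: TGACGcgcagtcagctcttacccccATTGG
H2-D1 site: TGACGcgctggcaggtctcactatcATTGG

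The H2-K1 and H2-D1 stretches shared 23 of 30 bases, B2m and H2-K1 shared 13, and B2m and H2-D1 shared 12, of which 10 are the marked letters. Within the 250 bases before a start, CCAAT was present in 33.8% of the 32851 RefSeq promoters, TGACG in 17.8%, the interferon core in 2.98%, the NF-kB core in 0.356% and GGGCGG in 32.7%. The pair at this spacing was present in 30 entries, or 0.0913%, from 26 genes, which included the class I heavy chain gene H2-M3 besides the 3 members. The Tap1 and Psmb9 windows each held 1 CCAAT, 1 TGACG and 1 GGGCGG, in opposite orientation, since these genes share a promoter read both ways. The Tapbp window held 2 matches to CCAAT and 1 GGGCGG, and those of Psmb8 and Psmb10 held no match to the 5 motifs. A match describes letters only.

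The question addressed first was whether heterozygous loss of Crebbp, of Kmt2d or of both changed accessibility at these genes. No member peak was called in any of 7 contrasts by the quasi-likelihood test of edgeR, where a call needed a Benjamini-Hochberg adjusted p below 0.01 over all 65483 peaks. In C against WT 0 of 25 member peaks were called, against 0.16% of all peaks, and 0 had an unadjusted p under 0.05, against 8.9% of all peaks. In K against WT 0 of 25 were called, against 1.48% of all peaks, and 0 had an unadjusted p under 0.05, against 20.6%. In CK against WT 0 of 25 were called, against 6.84% of all peaks and 10.8% of the 13744 peaks over a protein-coding start site, and 3 had an unadjusted p under 0.05, against 28.9%. DESeq2 called 0 of 25 in each of these contrasts as well, against 0.275%, 2.47% and 7.94% of all peaks. Its unadjusted p was under 0.05 for 0 member peaks of the C contrast, 0 of K and 4 of CK, against 7.25%, 18.1% and 26% of all peaks. Over start sites the share of peaks called in C was 0.138% and in K 2.12%. A share near 0 among all peaks leaves little to read from 0 of 25 in C and K. Each library pools sorted cells, so a change in the share of cells with an open site and a change in how open it was in each cell cannot be told apart.

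Contrasts between mutant genotypes also gave 0 calls among the 25 peaks by either tool. In CK against K, edgeR called 0.00916% of all peaks and DESeq2 0.055%, and 0 members had an unadjusted p under 0.05 by either, against 7.35% and 5.81% of all peaks. In CK against C, edgeR called 1.68% of all peaks and DESeq2 2.91%, and 3 and 4 members had an unadjusted p under 0.05, against 21.2% and 18.7%. In K against C, edgeR called 0.788% of all peaks and DESeq2 1.59%, and 2 members and 1 member had an unadjusted p under 0.05, against 17.9% and 15.7%. For the departure of CK from additive changes of C and K, edgeR called 0.0107% of all peaks and DESeq2 0.0168%, and each gave 1 member an unadjusted p under 0.05, against 3.73% and 2.61%.

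Counts summed over each locus gave 0 of 10 member loci called in all 7 contrasts by either tool. Of 16085 protein-coding loci, edgeR called 0.174% for C, 3.14% for K and 12.5% for CK against WT, 0.0124% in CK against K, 4.79% in CK against C, 1.03% in K against C and 0.0187% for the departure from additivity. An unadjusted p under 0.05 was given by edgeR to 1 member locus in CK against WT, 2 in CK against C, 1 in K against C and 0 in the other contrasts. The share of all loci at this threshold was not computed here, so these counts have no background beside them.

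The intervals say how large a change these libraries leave room for under the main scaling. For all 10 start-site peaks, the 95% intervals of the fold change lay between 0.835-fold and 1.23-fold in each of the 7 contrasts. Other settings gave intervals that passed these bounds, as given below for the shorter Tapbp peak with GC content bins. The same was so for H2-K1 within libraries without Y signal. Over all 25 peaks the interval stayed within 1.5-fold for 22 in C, 23 in K and 22 in CK, and the exceptions were peaks of few fragments downstream of B2m and in introns of Nlrc5. Over the 25 peaks the median log2 fold change of C was 0.00, that of K 0.01 and that of CK 0.00, beside 0.00 in each genotype over all peaks. Among the 10 start-site peaks the medians were 0.00, 0.02 and 0.02, beside -0.01, 0.06 and 0.06 over all 13744 start-site peaks. With GC content bins the medians of these 10 turned to -0.05 in K and -0.05 in CK. Beside them, the medians over all start-site peaks were 0.01 and 0.00. Over the 25 peaks the medians with these bins were -0.04 in K and -0.04 in CK.

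**Figure D1:**
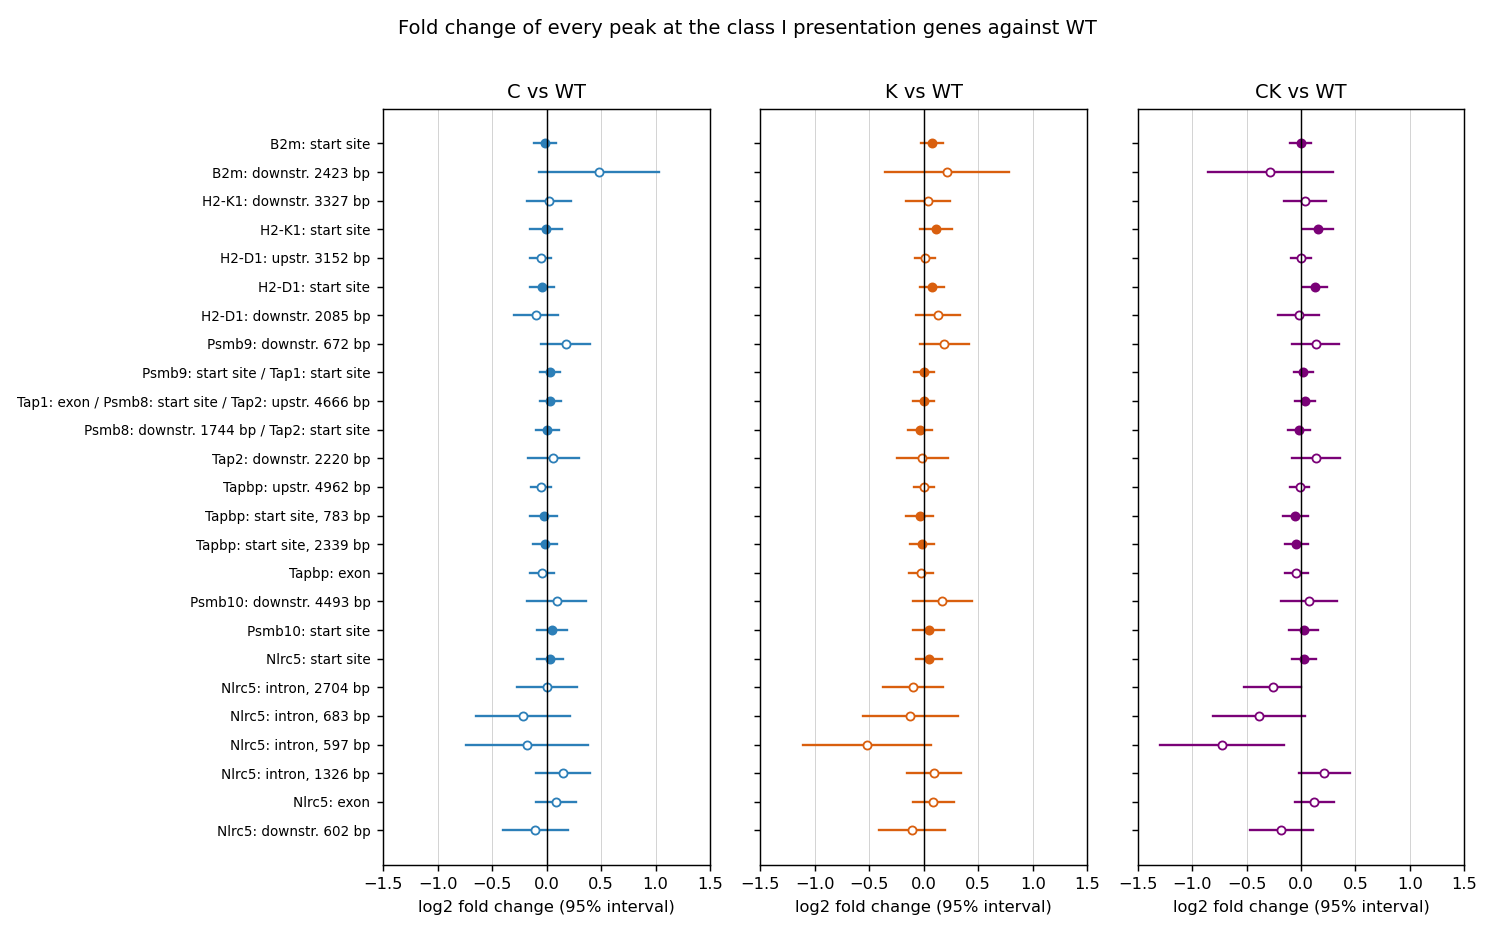
Log2 fold change of each of the 25 peaks (rows, grouped by gene) in C, K and CK against WT, with filled points for peaks over a start site, open points for the others and lines for 95% intervals. Start-site points lie between -0.05 and 0.16 in all 3 panels, and the widest intervals belong to the downstream peak of B2m and to introns of Nlrc5.

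B2m, the light chain shared by all class I molecules, had its start-site peak at chr2:122146897-122149120. The 4 WT libraries held 84.1, 84.6, 84.7 and 89.3 CPM, the C libraries 88.2, 89.8, 82.1 and 78.8, the K libraries 91.6, 97.4, 82.4 and 90.2, and the CK libraries 87.9, 86.8, 82.5, 83.5 and 86.2. The genotypes overlapped, and the CK mean of 85.4 ± 2.29 CPM (SD, n = 5) was within the spread around the WT mean of 85.7 ± 2.45 (SD, n = 4). The log2 fold change in CK was 0.00 (95% interval -0.10 to 0.09, adjusted p = 0.966 in edgeR's quasi-likelihood test), and in K it was 0.08 (-0.02 to 0.18, adjusted p = 0.395).

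A second, weak peak lay 2423 bp downstream of B2m, where libraries had between 6 and 28 fragments. It held 0.745, 0.94, 0.609 and 0.831 CPM in WT, 0.991, 0.947, 1.42 and 1.01 in C, and 0.295, 0.754, 0.568, 0.797 and 0.807 in CK. All C libraries were above all WT and all CK libraries. Groups did not overlap for 2 member peaks in C against WT and for 1 in CK against C, where this was so for 5.66% and 9.12% of all peaks. No member peak was so separated in K against WT (11.3% of all peaks), CK against WT (13%), CK against K (1.96%) or K against C (10.9%). The differences were not called: the log2 fold change was 0.48 (-0.07 to 1.03, adjusted p = 0.632 in edgeR's quasi-likelihood test) for C against WT and -0.76 (-1.30 to -0.23, adjusted p = 0.0755) for CK against C.

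The heavy chain genes H2-K1 and H2-D1, which encode the classical class I molecules that present peptides to most CD8+ T cells, had the largest positive differences of the 10 start-site peaks in CK, although that of H2-D1 turned negative when GC content was taken into account. The H2-K1 peak at chr17:33998798-34000885 held 97.4, 93.8, 83.1 and 83.7 CPM in WT and 96.0, 94.0, 80.8 and 85.6 in C. It held 109, 102, 90.3 and 85.6 CPM in K, with CK at 108, 101, 97.5, 92.2 and 100. The order of the means was C, WT, K and CK, from 89.1 to 99.7 CPM, and groups next to each other in this order overlapped. All CK libraries were above the 2 lowest WT libraries, and 1 CK library was below the highest WT library.

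For the H2-K1 peak, CK against WT gave a log2 fold change of 0.16 (95% interval 0.02 to 0.29), a 1.11-fold difference that was not called (unadjusted p = 0.0255, adjusted p = 0.111 in edgeR's quasi-likelihood test). Within the libraries without Y signal, 2 WT and 3 CK, it was 0.26 (0.14 to 0.37, adjusted p = 0.0122), and within those with it, 2 of each, 0.06 (-0.11 to 0.24, adjusted p = 0.771). The H2-K1 locus, to which a weak downstream peak was added, was called within the libraries without Y signal (log2 fold change 0.23, adjusted p = 0.0061 in edgeR's quasi-likelihood test) and not over all libraries (0.14, adjusted p = 0.1). Whether the 2 sets of libraries differ in this effect was not tested.

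The H2-D1 start-site peak at chr17:35262572-35264523 held 81.7, 75.7, 71.8 and 74.4 CPM in WT and 77.3, 75.7, 71.0 and 70.8 in C. It held 86.8, 81.6, 73.5 and 77.9 CPM in K, with CK at 89.3, 83.6, 81.2, 76.7 and 83.9. The order C, WT, K and CK was that of H2-K1, and 3 of 5 CK libraries were above every WT library. The log2 fold change was 0.13 (0.02 to 0.23, adjusted p = 0.0941 in edgeR's quasi-likelihood test) in CK against WT and 0.17 (0.06 to 0.28, adjusted p = 0.0461) in CK against C, the lowest adjusted p of any member peak in that contrast. Within the libraries without Y signal the CK against WT difference was 0.18 (0.06 to 0.30, adjusted p = 0.0582 in edgeR's quasi-likelihood test), and within those with it 0.08 (-0.09 to 0.24, adjusted p = 0.676).

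GC content bears on these 2 peaks, of which 62.2% and 63.8% of bases were G or C. When counts were centred within bins of GC content, the log2 fold change in CK against WT became 0.06 (-0.04 to 0.16, adjusted p = 0.482 in edgeR's quasi-likelihood test) for H2-K1 and turned to -0.07 (-0.15 to 0.02, adjusted p = 0.287) for H2-D1. The median over all 13744 start-site peaks went from 0.06 to 0.00 with the same step. H2-K1 and H2-D1 also share long stretches of sequence with each other and with the other class I heavy chains, and how the aligner placed fragments that match several of them is not given in the sources used here, so the split of fragments between these genes is uncertain. A peak 3152 bp upstream of H2-D1 had WT at 58.5 ± 2.26 CPM (SD, n = 4), CK at 58.5 ± 2.35 (SD, n = 5) and a log2 fold change of 0.00 (-0.09 to 0.09).

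**Figure D2:**
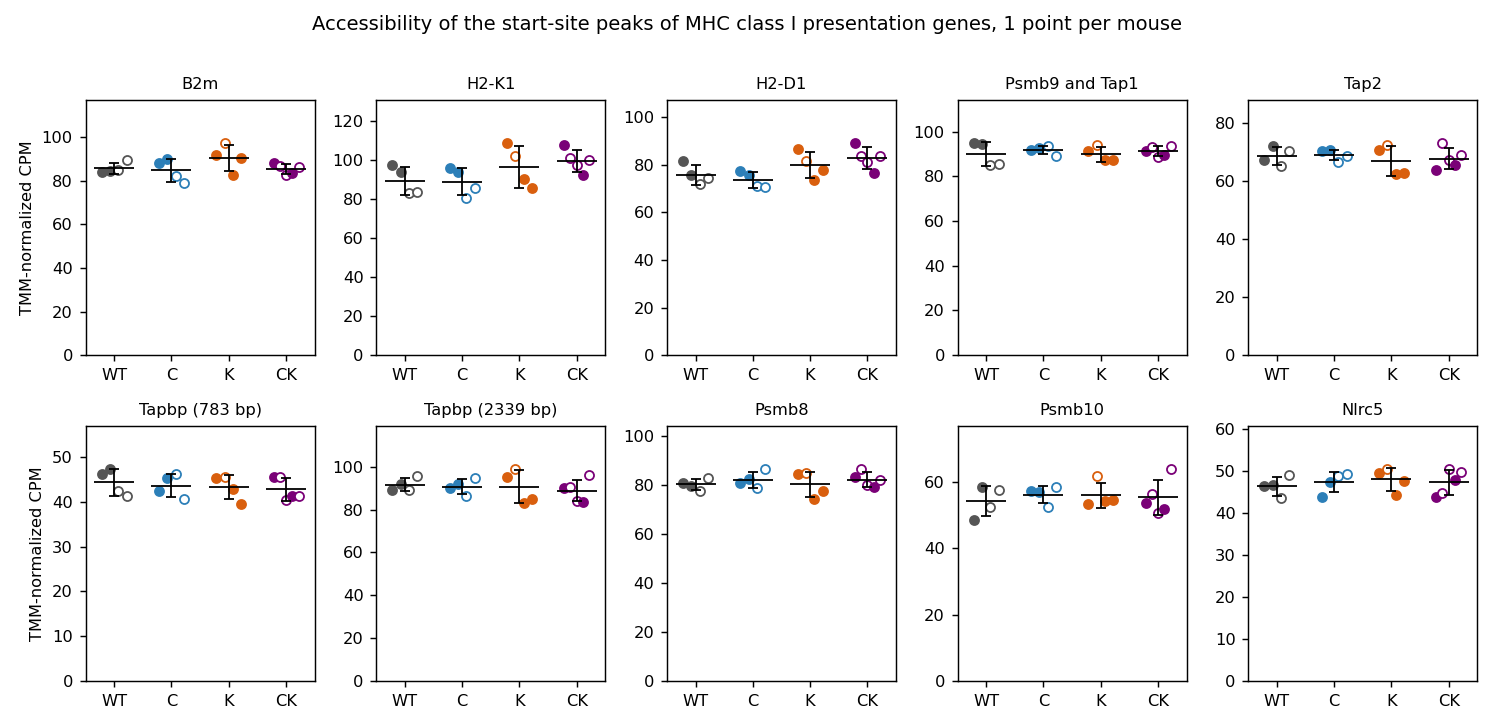
TMM-normalized CPM of the 10 start-site peaks in each mouse by genotype, with horizontal lines for means, bars for the SD and filled points for the 9 libraries with Y signal. In every panel the genotypes overlap, and the CK means of H2-K1 (99.7 CPM) and H2-D1 (82.9 CPM) lie above those of WT (89.5 and 75.9 CPM) by about the spread between mice, and with GC content bins the H2-D1 difference is negative.

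The genes that supply peptides showed smaller differences. Psmb9, a catalytic subunit of the immunoproteasome, and Tap1, whose product pairs with that of Tap2 in the peptide transporter, are read in opposite directions from 1 peak at chr17:34186650-34188336. It held 95, 94.3, 85.2 and 85.3 CPM in WT, 91.6, 92.7, 93.7 and 89.2 in C, 91.2, 94.1, 87.1 and 87.3 in K, with CK at 91.4, 93.1, 88.6, 89.6 and 93.6. Every mutant library lay inside the range of the WT libraries. Against WT, C gave a log2 fold change of 0.03 (-0.06 to 0.12), K of 0.00 (-0.09 to 0.09) and CK of 0.02 (-0.06 to 0.11, adjusted p = 0.793 in edgeR's quasi-likelihood test), which with GC content bins became -0.08. A peak 672 bp downstream of Psmb9 held 16.1, 13.9, 16.3 and 15.9 CPM in WT and 16.6, 16.4, 19.7 and 17.8 in C, the second of the peaks whose groups did not overlap, with a log2 fold change of 0.18 (-0.05 to 0.40, adjusted p = 0.679 in edgeR's quasi-likelihood test).

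Psmb8 encodes a second catalytic subunit of the immunoproteasome, and its start-site peak at chr17:34196389-34198861 also overlapped an exon of Tap1. It held 80.9, 79.5, 77.8 and 83.0 CPM in WT, 80.9, 82.5, 78.7 and 86.5 in C, 84.4, 84.8, 74.2 and 77.8 in K, with CK at 83.2, 86.8, 80.0, 79.3 and 82.0. The groups overlapped, and the log2 fold change in CK was 0.03 (-0.06 to 0.13, adjusted p = 0.665 in edgeR's quasi-likelihood test). Psmb10, the third catalytic subunit, lies on chromosome 8, with its start-site peak at chr8:105936725-105938532. It held 48.7, 58.4, 52.5 and 57.6 CPM in WT, 57.2, 56.9, 52.4 and 58.4 in C, 53.5, 61.7, 54.2 and 54.6 in K, with CK at 53.8, 56.5, 50.7, 51.8 and 64.1. The groups overlapped, and CK against WT gave a log2 fold change of 0.03 (-0.11 to 0.16, adjusted p = 0.833 in edgeR's quasi-likelihood test).

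Tap2 encodes the partner of Tap1 in the transporter. Its start-site peak at chr17:34203198-34206327 held 67.4, 72.1, 65.2 and 70.2 CPM in WT, 70.2, 70.6, 66.7 and 68.7 in C, 70.6, 72.3, 62.5 and 62.7 in K, with CK at 63.8, 73.2, 67.3, 65.6 and 68.9. K and CK had libraries on both sides of the WT range, and the log2 fold change was -0.04 (-0.15 to 0.07) in K and -0.02 (-0.12 to 0.08, adjusted p = 0.834 in edgeR's quasi-likelihood test) in CK.

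Tapbp encodes tapasin, which holds empty class I molecules at the transporter until a peptide is bound. It had 2 start-site peaks, at chr17:33915678-33916460 and chr17:33918866-33921204. The longer held 89.3, 92.2, 89.4 and 95.6 CPM in WT, 90.3, 91.9, 86.2 and 94.7 in C, 95.4, 99.2, 83.0 and 85.2 in K, with CK at 90.0, 90.7, 84.2, 83.7 and 96.0. The shorter held 46.3, 47.5, 42.4 and 41.4 CPM in WT, 42.4, 45.4, 46.2 and 40.6 in C, 45.3, 45.5, 42.9 and 39.6 in K, with CK at 45.7, 45.6, 40.4, 41.3 and 41.3. The log2 fold changes in CK were -0.04 (-0.15 to 0.06) and -0.05 (-0.17 to 0.07), with adjusted p = 0.628 and 0.61 in edgeR's quasi-likelihood test, and the groups overlapped.

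With GC content bins, the shorter Tapbp start-site peak, of which 64.1% of bases were G or C, was called in CK against WT (log2 fold change -0.24, -0.35 to -0.14, adjusted p = 0.00229 in edgeR's quasi-likelihood test). So was the peak over the end of Tapbp (-0.24, adjusted p = 0.00116), which spans the start site of the neighbouring gene Rgl2. These bins gave calls for 2 of 25 member peaks in CK against WT, against 5.99% of all peaks. The fourth Tapbp peak spans the start site of Daxx, 4962 bp upstream, with WT at 114 ± 2.47 CPM (SD, n = 4) and CK at 113 ± 3.30 (SD, n = 5).

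Nlrc5, the class I transactivator, is the longest member and had 7 peaks. Its start-site peak at chr8:94433421-94435172 held 46.3, 46.7, 43.4 and 48.9 CPM in WT, 43.8, 47.4, 48.7 and 49.2 in C, 49.4, 50.5, 44.1 and 47.6 in K, with CK at 43.7, 44.8, 50.5, 47.8 and 49.6. The genotypes overlapped, and the log2 fold change was 0.03 (-0.09 to 0.15) in C, 0.05 (-0.07 to 0.17) in K and 0.03 (-0.08 to 0.14, adjusted p = 0.772 in edgeR's quasi-likelihood test) in CK.

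Inside the gene, 3 of 4 intronic peaks had lower means in CK than in WT, and none was called. The first, at chr8:94441380-94444083, held 13.5, 13.9, 13.1 and 14.8 CPM in WT, 10.8, 12.6, 16 and 16 in C, 12, 15.9, 11.1 and 12.5 in K, with CK at 10.0, 10.0, 12.4, 10.1 and 15.2. Of the CK libraries 4 of 5 were below every WT library and the fifth was above them, and the log2 fold change was -0.26 (-0.53 to 0.00, adjusted p = 0.18 in edgeR's quasi-likelihood test). In WT the peak at chr8:94447396-94448078 held 2.34 ± 0.628 CPM (SD, n = 4) and in CK 1.81 ± 0.414 (SD, n = 5), with a log2 fold change of -0.39 (-0.81 to 0.04, adjusted p = 0.216 in edgeR's quasi-likelihood test).

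The third intronic peak, at chr8:94458643-94459239, had the largest difference of any member peak in CK. It held 1.12, 1.51, 1.78 and 1.99 CPM in WT, 0.944, 0.992, 2.17 and 1.59 in C, 0.69, 1.53, 1.15 and 1.11 in K, with CK at 0.788, 0.592, 1.33, 0.797 and 1.33, from 11 to 43 fragments a library. The order of the means was WT, C, K and CK, 3 of 5 CK libraries were below every WT library, and the other 2 lay between the lowest and the next WT library. The log2 fold change was -0.73 (-1.30 to -0.16, adjusted p = 0.0746 in edgeR's quasi-likelihood test) in CK and -0.52 (-1.11 to 0.07, adjusted p = 0.31) in K. Within the libraries without Y signal the CK difference of this peak was -0.79 (-1.45 to -0.13, adjusted p = 0.139 in edgeR's quasi-likelihood test), and within those with it -0.73 (-1.44 to -0.02, adjusted p = 0.269). The fourth intronic peak had the opposite sign, with WT at 6.45 ± 0.615 CPM (SD, n = 4), CK at 7.47 ± 0.648 (SD, n = 5) and a log2 fold change of 0.21 (-0.02 to 0.45, adjusted p = 0.219 in edgeR's quasi-likelihood test). The Nlrc5 locus as a whole had WT at 88.2 ± 2.68 CPM, CK at 87.7 ± 5.04 and a log2 fold change of -0.01 (-0.10 to 0.08).

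**Figure D3:**
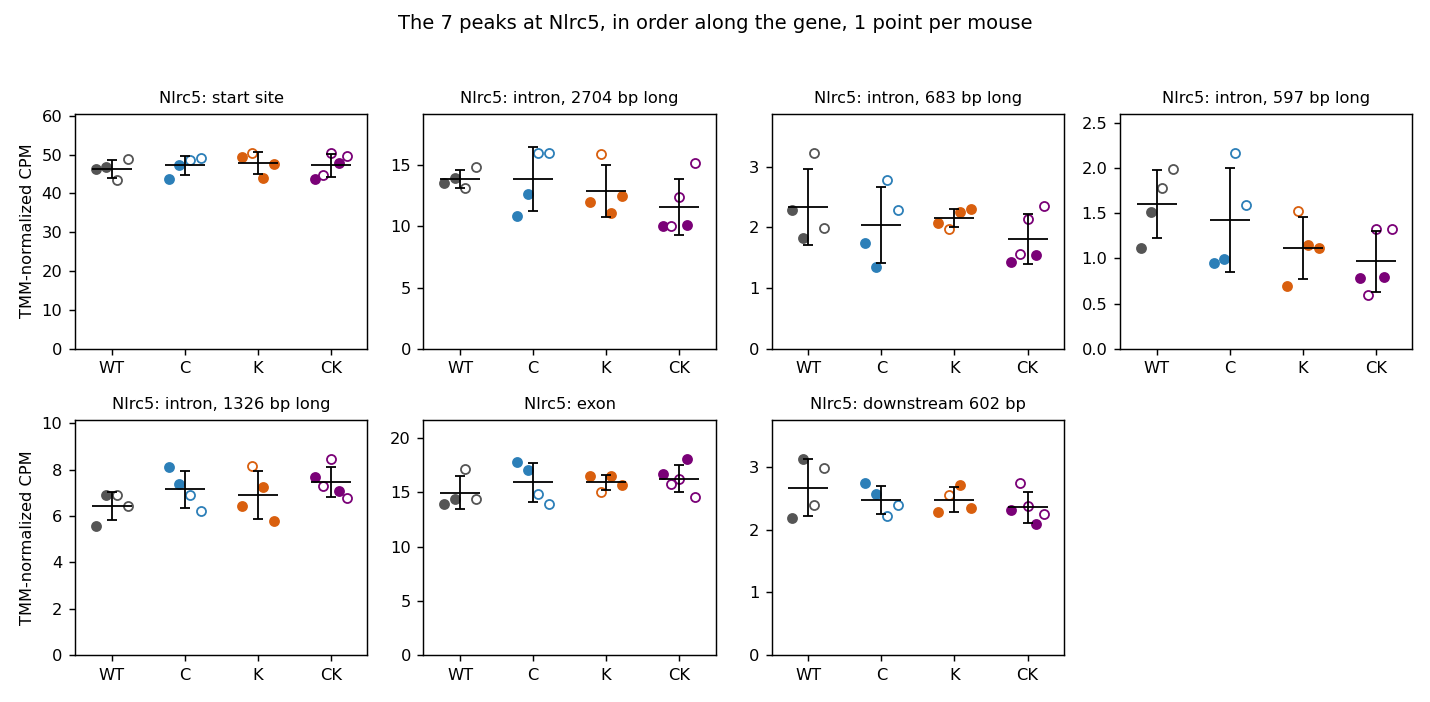
TMM-normalized CPM of the 7 peaks at Nlrc5 in each mouse by genotype, in order along the gene, with lines for means, bars for the SD and filled points for libraries with Y signal. The means of the start-site peak lie between 46.3 and 47.9 CPM, whereas the means of the first 3 intronic peaks are lower in CK than in WT, with some CK mice inside or above the WT range.

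The remaining peaks, downstream of H2-K1, H2-D1, Tap2, Psmb10 and Nlrc5 and in an exon of Nlrc5, held between 2.35 and 16.3 CPM on average in any genotype. Their log2 fold changes in CK against WT lay between -0.18 and 0.14, and none was called.

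The start-site peaks differed more between genes than between genotypes. In WT, and per kb of peak, the shorter Tapbp peak had 56.7 ± 3.80 CPM per kb (SD, n = 4) and the Psmb9 and Tap1 peak 53.3 ± 3.22. Next were H2-K1 with 42.9 ± 3.46, the longer Tapbp peak with 39.2 ± 1.27, H2-D1 with 38.9 ± 2.15 and B2m with 38.5 ± 1.10. All peaks were measured in the same mice, and differences between peaks within a mouse were not tested. Psmb8 had 32.5 ± 0.883, Psmb10 30.0 ± 2.51, Nlrc5 26.5 ± 1.28 and Tap2 22 ± 0.960 CPM per kb. The median of all 13744 start-site peaks was 21.2 CPM per kb, and the members ranked from the percentile 51.5 for Tap2 to 94.4 for the shorter Tapbp peak. The coefficient of variation over the 17 mice had a median of 5.28% for the 10 start-site peaks of members, beside 7.33% for all start-site peaks. These densities depend on the width of the called peak, from 783 bp to 3130 bp here.

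Averaged over the 25 peaks, log2 CPM came to 4.37 ± 0.04 for WT, 4.38 ± 0.02 for C, 4.38 ± 0.08 for K (SD, n = 4 each) and 4.33 ± 0.06 for CK (SD, n = 5), and its range over libraries was 4.27 in CK 1 to 4.49 in K 2. Each peak counted equally in this mean, so the weak peaks of few fragments weighed as much as the start-site peaks. Of 16064 other protein-coding loci, the 5 whose log2 CPM was most alike in pattern over the 17 libraries were Itgae (Pearson's r = 0.815), Dnah17 (0.747), Irgm2 (0.746), Top2b (0.743) and Rnf115 (0.736). These points share library depth and scaling, and the coefficients are a description. Their own log2 fold changes in CK against WT lay between -0.08 and -0.03, and none was called.

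Of 43 other genes of the class I pathway, 42 had a peak within 5 kb, and H2-T10 had none. In C against WT 0 of the 42 loci were called by edgeR or by DESeq2, and 4 had an unadjusted p below 0.05 by edgeR. In K 2 loci rose and 0 fell, or 2 of 42 against 3.14% of all loci, and in CK 3 rose and 0 fell, against 12.5% of all loci. DESeq2 called 2 in K and 3 in CK. Their median log2 fold change against WT was -0.02 for C, 0.02 for K and 0.01 for CK. By role, 2 of 14 other heavy chain and class I-like genes rose in CK, and 1 of 6 proteasome genes did. In CK 0 of 5 genes of peptide loading and trimming and 0 of 17 regulators were called, of which 1 and 8 had an unadjusted p below 0.05 by edgeR. Over the 42 loci the unadjusted p was below 0.05 for 9 in K and 17 in CK. The share of all loci at this threshold was not computed here.

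Cd1d1, which encodes a class I-like molecule that shows lipids to NKT cells, rose in K and CK. Its single peak, over the start site at chr3:86998636-87000273, held 9.47, 10.9, 9.09 and 8.53 CPM in WT, 12.2, 12.4, 12 and 11.1 in C, 14.6, 12, 13 and 12 in K, with CK at 14.9, 16.5, 14.4, 12.9 and 11.4. Every mutant library was above every WT library. On the log2 scale the difference of the locus was 0.44 (0.23 to 0.66, adjusted p = 0.0099 in edgeR's quasi-likelihood test) in K and 0.56 (0.36 to 0.77, adjusted p = 0.000288) in CK, and in C it was 0.33 (0.11 to 0.54) and not called (adjusted p = 0.219). Adjusted over all peaks instead of loci, the peak was called in CK (adjusted p = 0.00058 by the same test) and not in K (adjusted p = 0.0156). The CK call was kept in 9 of 9 fits that left out 1 mouse, whereas the K call was kept in 1 of 8, that without WT 2, with adjusted p from 0.00681 to 0.0517. The CK difference was 0.68 on the log2 scale (adjusted p = 0.00994 in edgeR's quasi-likelihood test) in libraries without Y signal and 0.45 (adjusted p = 0.0377) in those with it.

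H2-Q2, a heavy chain gene of the Q region, rose in K and CK, with the reservation on near-identical heavy chain genes made above. Its peak at chr17:35341785-35343700 held 16.9, 15.7, 14.1 and 14 CPM in WT, 19.2, 16.4, 17 and 15.6 in C, 18.4, 21, 18.3 and 19.9 in K, with CK at 20.1, 20, 20.7, 17.5 and 18.9. All K and CK libraries were above all WT libraries, and the C libraries overlapped with WT. The log2 fold change of the locus was 0.36 (0.19 to 0.52, adjusted p = 0.00786 in edgeR's quasi-likelihood test) in K and 0.36 (0.20 to 0.52, adjusted p = 0.00156) in CK. Adjusted over all peaks instead of loci, the peak was called in CK (adjusted p = 0.00319 by the same test) and not in K (adjusted p = 0.0133). Leaving out WT 3 or WT 4 ended the CK call, with an adjusted p of up to 0.0101, and the K call was kept only without WT 1 or without K 3, with adjusted p from 0.00546 to 0.0381. The CK difference was 0.50 on the log2 scale (adjusted p = 0.006 in edgeR's quasi-likelihood test) in libraries without Y signal and 0.21 (adjusted p = 0.283) in those with it, and with GC content bins the peak had 0.26 and was not called (adjusted p = 0.0226 by the same test).

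Psme1, a subunit of the activator that opens the proteasome, rose in CK, where its mean was 71.2 ± 2.78 CPM (SD, n = 5) beside 64.2 ± 2.08 (SD, n = 4) in WT, with a log2 fold change of 0.15 (0.07 to 0.23, adjusted p = 0.00932 in edgeR's quasi-likelihood test). The libraries held 61.2, 65.4, 64.6 and 65.7 CPM in WT and 69.2, 70.3, 71.2, 69.3 and 75.9 in CK, and the groups did not overlap. The locus sums the peak over the Psme1 start, with a log2 fold change of 0.11 (adjusted p = 0.163 in edgeR's quasi-likelihood test), and a peak over the start of the neighbouring gene Emc9, with 0.23 (adjusted p = 0.0152). The call was lost in 9 of 9 fits that left out 1 mouse, with adjusted p from 0.0109 to 0.0374, in both sets of libraries split by Y signal, with DESeq2 size factors, with only WT and CK in the fit, and with either other window around the gene.

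The other loci named by rule were not called against WT by edgeR or DESeq2. Rfxap, a subunit of the RFX complex that binds MHC promoters, had a log2 fold change of 0.18 (0.07 to 0.29, adjusted p = 0.0283 in edgeR's quasi-likelihood test) in K. In C, Nfyc, a subunit of NF-Y, had -0.09 (-0.15 to -0.02, adjusted p = 0.341), and the heavy chain gene H2-Q7 had -0.10 (-0.20 to -0.01, adjusted p = 0.456 in edgeR's quasi-likelihood test).

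**Figure D4:**
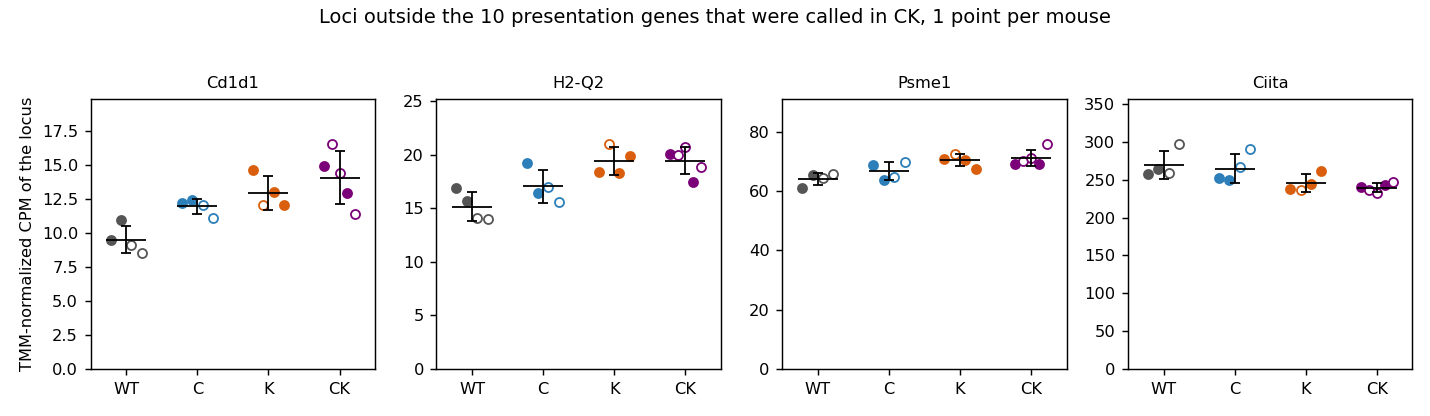
TMM-normalized CPM of the loci Cd1d1, H2-Q2, Psme1 and Ciita in each mouse by genotype, with lines for means, bars for the SD and filled points for libraries with Y signal. Cd1d1 is higher in every mutant mouse than in every WT mouse, H2-Q2 in every K and CK mouse, and Ciita has its highest WT library at 297 CPM.

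MHC class II genes, whose products show peptides to CD4+ T cells, lie for the most part among the class I genes on chromosome 17, and they and their regulator Ciita, which lies elsewhere, were added for comparison after the data were seen. Of 10 class II loci, edgeR's quasi-likelihood test called 0 in C and 0 in K, and 1 fell in CK, against 12.5% of all loci. Of the 10 loci, 7 had an unadjusted p below 0.05 by this test when CK was compared with WT, 5 when K was and 2 when C was. How often any locus reached this threshold was not computed here, so the counts stand without a background and do not set class II loci apart. Median log2 fold changes of the class II loci were -0.07 for C, -0.08 for K and -0.09 for CK. Ciita, the class II transactivator and relative of Nlrc5, held 258, 264, 259 and 297 CPM in WT and 240, 236, 232, 243 and 247 in CK. All CK libraries were below all WT libraries, and the locus fell by 0.17 on the log2 scale (adjusted p = 0.00918 in edgeR's quasi-likelihood test). That call was kept without WT 1 or CK 5 and lost without any other single mouse of the 2 genotypes, with adjusted p up to 0.0677. Whether class I and class II loci differed from each other in these changes was not tested.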

How the data were processed

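ATAC-seq libraries of GC B cells were analysed from 4 WT, 4 C, 4 K and 5 CK mice, and 7 libraries of sorted CB and CC cells were not analysed here. The authors processed paired-end 50 base reads with the nf-core ATAC-seq pipeline 1.2.1 on mm10 and deposited raw counts of fragments per consensus peak, 1 column a library, from featureCounts 2.0.1 (minimum overlap 0.2, overlapping features counted), without normalization.

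Counts were scaled by TMM and fitted with edgeR 4.0.16 in R 4.3.3, with 1 coefficient per genotype over all 17 libraries and no covariate. Each contrast was given a quasi-likelihood test, its p-values were adjusted by Benjamini-Hochberg over 65483 peaks, or over 16085 loci, and a call needed an adjusted p under 0.01. Intervals are 95% t intervals of the fitted log2 fold change between genotypes. Their width rests on the variation between mice, and they do not bound the values of single mice. A filter of 10 summed counts removed 0 peaks. DESeq2 1.42.0 was an alternative. The procedure was tested on simulated data. The members and gene lists were chosen with earlier results of these data known. Peaks over start sites were given in full, other member peaks by values or ranges, and of the other pathway genes the 3 with the lowest adjusted p in C, K and CK against WT.

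Libraries with the same number were compared through their deviations from the genotype means. For C and WT each of the 4 pairs correlated at over 0.1 (0.145 to 0.224), and numbers 1 and 2 held the Y signal in both. Pairs of unlike number correlated as well, WT 2 with C 1 at 0.171, WT 1 with C 2 at 0.133 and WT 4 with C 3 at 0.11. WT 3 with C 4 reached 0.0808. In each of these, both libraries or neither held the Y signal, so a pairing by number was not established. A replicate block changed no count of called members in C against WT, while the share of all peaks called went from 0.16% to 0.324%. Over all genotypes 12 of 24 same-number pairs correlated at over 0.1.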

Additional observations from a re-analysis of the deposited data

Results flagged for a closer look

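In 100 groups of libraries (25 peaks in 4 genotypes), 5 values stood apart from the rest of their group by Dixon's criterion, and chance alone flags about 1 in 20 groups. The B2m start-site peak had 89.3 CPM in WT 4, where the other WT libraries had 84.1 to 84.7. The peak downstream of B2m had 1.42 CPM in C 3, from 28 fragments, where the others had 0.947 to 1.01. The peak downstream of Psmb9 had 13.9 CPM in WT 2, where the others had 15.9 to 16.3. The exonic peak of Nlrc5 had 17.2 CPM in WT 3, where the others had 13.9 to 14.4. The Psmb10 start-site peak had 61.7 CPM in K 2, where the others had 53.5 to 54.6. K 2 was also the library with the highest mean over all member peaks.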

How the results depend on the processing

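The count of 0 called member peaks and 0 called member loci held in every fit that left out 1 mouse, with 0 to 0 calls in each of the 7 contrasts, and with DESeq2, other scalings, filters on low counts, the Y signal as a covariate, and only the genotypes compared. It changed as follows. At an adjusted p under 0.05, 1 peak and 1 locus, both of H2-D1, were called in CK against C. The share of all peaks and loci at this threshold is not given here. With GC content bins 2 of 25 peaks were called in CK against WT, both at Tapbp, against 5.99% of all peaks. With gene bodies extended by 25 kb, which took 53 peaks, 2 were called in CK and 1 in K against WT. Within libraries without Y signal, chosen after seeing the data and with a lone K library assumed to vary like the others, 1 member locus was called in CK against WT.

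With a replicate block over the libraries numbered 1 to 4, 1 member peak and 1 locus were called in CK against WT, both of H2-K1 (adjusted p = 0.00446 and 0.00303 in edgeR's quasi-likelihood test), and 2 peaks and 2 loci in CK against C, of H2-K1 and H2-D1. Of all peaks, 10.1% were called with this block in CK against WT and 3.92% in CK against C. The share of all loci called with it is not given here. The block changed no other count of members, and among the other loci it ended the call of Psme1 in CK against WT (0.12, adjusted p = 0.0189 by the same test). The libraries are known to share only a number. Over all genotypes, C and WT included, 9 libraries correlated best with another library of their own number. Same-number correlations over all genotypes ran from -0.116 to 0.224. In every genotype, H2-K1 was higher in the libraries numbered 1 and 2 than in those numbered 3 and 4.

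Among the 42 other loci the main counts were 2 in K and 3 in CK. They became 4 and 12 at an adjusted p under 0.05, 0 and 0 with a fold threshold of 1.5, and 0 and 0 within libraries with Y signal. In K the count was 1 with DESeq2 size factors, total counts or the Y signal as a covariate, and 0 within libraries without Y signal or with only the genotypes compared. Leaving out 1 mouse gave 0 to 1 in K, where every one of the 8 mice changed it, and 1 to 4 in CK, with 1 without WT 3 or WT 4. The cause of these changes was not tested. The widest intervals were those of the weakest peaks, downstream of B2m and in introns of Nlrc5.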

Other observations

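Beyond the 5 kb window, 2 of the 53 peaks within 25 kb of a member were called in CK against WT, against 6.84% of all peaks, and 1 of them also in K, against 1.48%, so these counts do not set the region apart. A peak over the start site of B3galt4, near Tapbp at chr17:33951046-33952105, held 36.8 ± 1.88 CPM in WT, 40.4 ± 1.36 in C and 43.5 ± 2.25 in K (SD, n = 4 each) and 45.4 ± 2.25 in CK (SD, n = 5). Its log2 fold change was 0.24 (adjusted p = 0.00928 in edgeR's quasi-likelihood test) in K and 0.31 (adjusted p = 0.000284 by the same test) in CK, and all K and CK libraries were above all WT libraries. A peak 5343 bp from the start of the class II gene H2-DMb1, near Psmb9 and Tap1 at chr17:34162188-34165785, was at 19.9 ± 2.38 CPM in WT (SD, n = 4), at 15.2 ± 1.15 in CK (SD, n = 5), and fell by 0.40 on the log2 scale (adjusted p = 0.0042 in edgeR's quasi-likelihood test), with overlapping groups.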
